A study of Homo sapiens with 54 samples.

Results

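Steroid sulfatase (STS) and 9 further steroid-converting enzymes were followed in 9 established human cell lines before and during exposure to calcitriol, the hormonal form of vitamin D. The genes were STS, SULT1E1, SULT2A1, CYP19A1, HSD17B1, HSD17B2, HSD17B4, HSD11B1, AKR1C3 and SRD5A1. Each was taken from the probe sets that carry its symbol and no other, and each of the 10 genes had 1 such probe set among the 19436 probe sets tested. GM07019, GM07348, GM10854 and GM12878 are 4 lymphoblastoid lines, made from B cells by transformation with Epstein-Barr virus. The other 5 were the fibroblast lines Ag09319 and Ag09309, the hepatoma line HEP-G2, the promyelocytic leukaemia line HL60 and the chronic myeloid leukaemia line K562. Each line was sampled without calcitriol at 0 h and with calcitriol at 8 h and 36 h, with 2 arrays per line and time, 54 arrays in 27 groups. The sample titles of HEP-G2, Ag09319 and GM12878 share a style and a date that those of the other 6 lines do not. What this marks is not given in the labels. In comparisons of lines across these title styles, line and title style cannot be told apart. The dose was not given in the sources used here. No untreated cultures of the later times were analysed here, so calcitriol and culture time cannot be told apart in any change against 0 h. Within a line, nothing in the labels says that the 2 arrays came from separate cultures, so p-values within a line measure only the spread between these samples.

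STS was chosen by its change at 36 h in the lymphoblastoid lines, and CYP19A1 by its change at 8 h in the mean of the 9 lines. These values, STS at 36 h in every other contrast and CYP19A1 at 8 h in every line are therefore given as descriptions with no test. The other 8 genes act in the same steroid pathways.

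Steroid sulfatase sits in the endoplasmic reticulum and removes sulfate from circulating steroid sulfates such as estrone sulfate and dehydroepiandrosterone sulfate, which cells cannot use directly as hormones. Sulfotransferases run the reaction the other way, and aromatase, the 17β-hydroxysteroid dehydrogenases, 11β-hydroxysteroid dehydrogenase type 1, AKR1C3 and 5α-reductase then set which estrogen, androgen or glucocorticoid is formed in the cell. Loss of STS causes X-linked ichthyosis, a scaling disorder of the skin, where the enzyme acts on cholesterol sulfate. Calcitriol acts through the vitamin D receptor, a nuclear receptor that binds DNA together with RXR at paired half-sites.

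The RefSeq promoter table (GRCh38.p14) held entries for 8 of the 10 genes, with 19 start sites in all, of which 5 belong to STS and 7 to CYP19A1. HSD17B1 and HSD17B2 were not searched. The 250 bases before each start were searched on both strands for 3 receptor half-sites and for the DR3 element, the paired form bound by the vitamin D receptor. No DR3 element was found in the 19 windows, against 0.065% of the 35116 windows of the whole table. At least 1 half-site stood in 6 of the 19 windows and in 27.7% of all windows. The half-site AGGTCA occurred in 12.1% of all windows. The variant GGTTCA was found in 7.16% of them. A further variant, GGGTCA, was found in 12.1%. The STS windows with a half-site, and 2 CYP19A1 windows with one, are shown because STS and CYP19A1 are the genes selected on their changes. They are printed 5′ to 3′ on the strand of the gene with the half-sites in capitals. The last base of each window is position -1 before the start. STS window 4 is chrX:7251994-7252243 (+), STS window 5 is chrX:7252223-7252472 (+), CYP19A1 window 1 is chr15:51318498-51318747 (-) and CYP19A1 window 7 is chr15:51243030-51243279 (-).
STS window 4: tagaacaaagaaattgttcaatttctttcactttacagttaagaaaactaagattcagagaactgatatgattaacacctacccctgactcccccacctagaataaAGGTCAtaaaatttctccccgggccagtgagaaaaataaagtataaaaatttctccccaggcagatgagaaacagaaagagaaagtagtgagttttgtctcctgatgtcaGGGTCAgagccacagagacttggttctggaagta
STS window 5: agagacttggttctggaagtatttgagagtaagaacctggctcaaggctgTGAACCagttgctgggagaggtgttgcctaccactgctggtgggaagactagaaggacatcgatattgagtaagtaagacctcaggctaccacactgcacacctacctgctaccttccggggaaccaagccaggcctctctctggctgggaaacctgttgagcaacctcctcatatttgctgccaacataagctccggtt
CYP19A1 window 1: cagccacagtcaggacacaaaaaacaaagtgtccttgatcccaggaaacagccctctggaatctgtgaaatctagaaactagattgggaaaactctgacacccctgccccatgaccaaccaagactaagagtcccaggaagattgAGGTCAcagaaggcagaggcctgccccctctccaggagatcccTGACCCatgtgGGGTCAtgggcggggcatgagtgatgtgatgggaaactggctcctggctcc
CYP19A1 window 7: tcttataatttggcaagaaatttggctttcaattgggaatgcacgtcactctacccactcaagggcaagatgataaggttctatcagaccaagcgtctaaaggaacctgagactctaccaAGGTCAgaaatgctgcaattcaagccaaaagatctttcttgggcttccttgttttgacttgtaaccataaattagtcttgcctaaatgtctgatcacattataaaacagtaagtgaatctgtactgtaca
STS window 4 holds AGGTCA at -144 to -139 and GGGTCA at -34 to -29, too far apart to form a DR3 element. STS window 5 holds GGTTCA on the opposite strand at -200 to -195. CYP19A1 is transcribed from several tissue-specific first exons. Its window 1 holds 3 half-sites, at -105 to -100, -62 to -57 (opposite strand) and -51 to -46, and its window 7 holds AGGTCA at -130 to -125. These matches describe the sequence only.

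Values are log2 RMA values, changes are log2 differences ± standard error, and a gene was called where the limma p-value adjusted by Benjamini-Hochberg over all 19436 probe sets was below 0.05. Array medians ran from 4.98 to 5.31, and no detection calls were used, so levels well below these medians cannot be told from background. In bulk RNA, fewer cells with a transcript and less RNA per cell cannot be told apart. The 2 arrays of a group correlated at a median r of 0.987, with the lowest values in Ag09319 at 8 h (0.897), HEP-G2 at 0 h (0.954) and K562 at 36 h (0.970), where replicate 2, replicate 2 and replicate 1 stood apart from the rest of their line. The defining markers followed the labelled cell types with 1 exception. Both 0 h arrays of Ag09309 held B cell transcripts beside fibroblast ones. MS4A1, which encodes CD20, stood at 8.15 and 8.07 in them, against 3.38 and 3.29 at 8 h and 3.10 and 2.85 at 36 h in the same line. FCER2, which encodes CD23, stood at 7.57 and 7.33 at 0 h and between 4.60 and 4.88 later. The mean of the 5 measured B cell markers of 7 was 6.28 and 6.22 in the 0 h arrays of Ag09309, 3.95 to 4.18 in its later arrays and 7.65 to 7.97 in the lymphoblastoid lines at 0 h. Results that use the 0 h arrays of Ag09309 are given with this in view.

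Before calcitriol STS was highest in the 2 fibroblast lines and SRD5A1 in K562, and the other 8 genes had their highest mean in HEP-G2. For SULT2A1, CYP19A1, HSD17B2, HSD11B1 and AKR1C3 both HEP-G2 arrays lay above both arrays of every other line. How many of all probe sets were highest in HEP-G2 in these ways was not counted. HSD17B1, HSD17B4 and SRD5A1 stood above the array median in all 54 arrays. In a test of each line's 0 h level against the mean of the other 8 lines, 7 of the 10 genes were called in HEP-G2, all 7 higher. This test was not used to choose the genes, but it shares its 0 h arrays with the changes that chose STS and CYP19A1. Its p-values measure the spread between arrays of a group, not the spread between lines. The count of 7 in HEP-G2 rests on both its 0 h arrays, of which replicate 2 stood apart. Which genes belong to this count is therefore uncertain. Without the arrays that stood apart, the HEP-G2 difference was 0.27 for HSD17B1, 0.32 for SULT1E1, 0.32 for HSD11B1 and 0.77 for HSD17B4. The other lines had 4 genes called in Ag09319, 4 in Ag09309, 4 in K562, 3 in HL60, 4 in GM07348, 2 in GM10854, 2 in GM12878 and 1 in GM07019. These counts stand against a large background. Of all probe sets tested, 54.8% were called in HEP-G2, 36.9% in Ag09319, 36.2% in Ag09309, 37.2% in K562, 31.3% in HL60, 21.1% in GM07348, 15% in GM10854, 16.1% in GM12878 and 17.2% in GM07019. The 0 h arrays of Ag09309, with their B cell transcripts, enter all these comparisons.

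**Figure D1:**
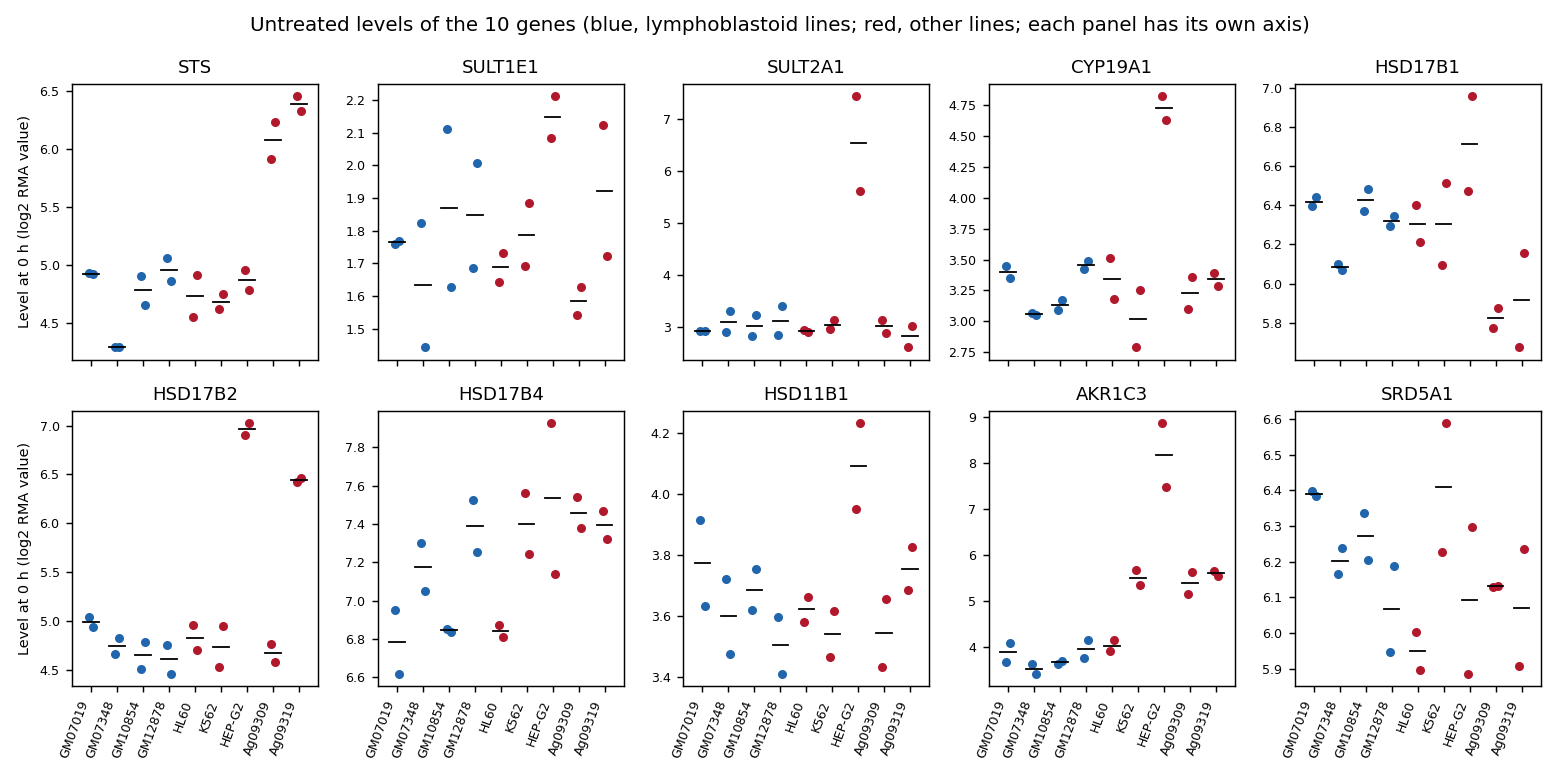
Log2 RMA values of the 10 genes at 0 h, 1 panel per gene, with the 9 lines on the horizontal axis. Points are the 2 arrays of a line and bars their mean, blue for lymphoblastoid and red for other lines. STS is highest in Ag09309 and Ag09319 (5.91 to 6.46), and HEP-G2 stands highest for SULT2A1, CYP19A1, HSD17B2 and AKR1C3.

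Untreated STS stood at 6.46 and 6.33 in Ag09319 and at 5.91 and 6.24 in Ag09309, and at 4.29 to 5.06 in the 8 lymphoblastoid arrays. It lay between 4.55 and 4.95 in HL60, K562 and HEP-G2. Both fibroblast lines thus lay above every other array, and Ag09319 lay above Ag09309. Against the mean of the other 8 lines STS was higher by 1.48 ± 0.13 in Ag09319 (adjusted p = 3.86e-12) and by 1.12 ± 0.13 in Ag09309 (adjusted p = 5.19e-09). The Ag09309 level was similar at 8 h, 6.11 and 6.15, where its B cell markers were low. GM07348 was the lowest line, with 4.29 in both arrays, and lay below the other lines by -0.89 ± 0.13 (adjusted p = 1.33e-06). GM12878, GM07019, HEP-G2, GM10854, HL60 and K562 followed each other with overlapping arrays.

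With calcitriol, STS stood apart in all 4 lymphoblastoid lines at 36 h, about 3.92-fold above 0 h on average. In GM07019 it measured 4.93 and 4.92 at 0 h, 5.05 and 5.53 at 8 h, and 6.97 and 6.84 at 36 h. GM07348 gave 4.29 and 4.29 at 0 h, 4.66 and 4.59 at 8 h, and 6.65 and 6.49 at 36 h. GM10854 gave 4.91 and 4.65 at 0 h, 5.25 and 5.07 at 8 h, and 6.68 and 6.61 at 36 h. In every one of these lines both 36 h arrays lay above all 8 h and 0 h arrays. The fourth line, GM12878, had 5.06 and 4.86 at 0 h, 5.16 and 5.13 at 8 h, and 6.78 and 6.65 at 36 h. The 36 h changes by line were 2.28 in GM07348, 1.98 in GM07019, 1.87 in GM10854 and 1.76 in GM12878, each ± 0.17. GM07348, the line with the lowest untreated level, had the largest change, but both values use the same 0 h arrays. Untreated lymphoblastoid STS (4.29 to 5.06) lay near or below the array medians (4.98 to 5.31). The sizes and order of these changes are therefore not exact. At 36 h the 8 lymphoblastoid arrays lay within 6.49 to 6.97. All 8 were above the highest untreated fibroblast array, 6.46. The mean over the 4 lines was 1.97 ± 0.09 at 36 h against 0 h and 1.66 ± 0.09 at 36 h against 8 h.

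**Figure D2:**
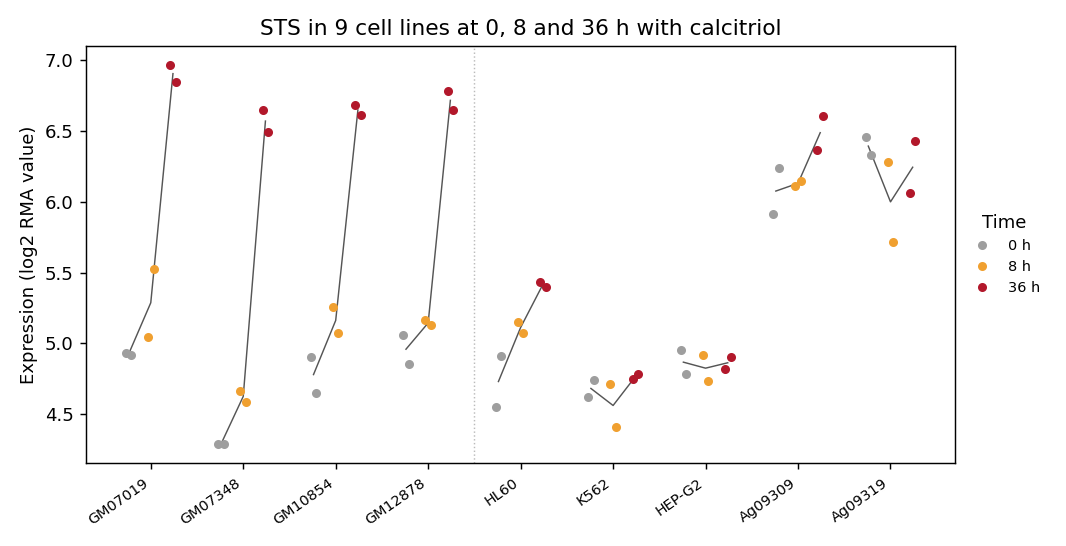
STS (log2 RMA value) in the 9 lines at 0, 8 and 36 h. Points are single arrays, grey lines join the means, and the dotted line divides the lymphoblastoid lines (left) from the other 5. The 8 lymphoblastoid arrays at 36 h sit between 6.49 and 6.97, and their 0 h arrays between 4.29 and 5.06.

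The change of STS at 36 h was smaller in each of the other 5 lines. HL60 was the nearest, with 4.55 and 4.91 at 0 h, 5.15 and 5.07 at 8 h, and 5.43 and 5.40 at 36 h, a change of 0.68 ± 0.17 at 36 h. In Ag09309 the arrays gave 5.91 and 6.24 at 0 h, 6.11 and 6.15 at 8 h, and 6.37 and 6.61 at 36 h, a change of 0.41 ± 0.17. Its 0 h arrays held B cell transcripts, and their part in this change and in the class difference below was not tested. K562, HEP-G2 and Ag09319 had changes of 0.08, 0.00 and -0.15, each ± 0.17. The 36 h change of the lymphoblastoid lines exceeded that of the other 5 by 1.77 ± 0.15 on average, and the ranges of the 2 classes, 1.76 to 2.28 and -0.15 to 0.68, did not overlap. STS was chosen by its 36 h change in the lymphoblastoid lines, so the separation follows in part from that choice, and no test is given for it. How many of all probe sets had class ranges that did not overlap was not counted.

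At 8 h, a contrast the choice of STS did not use apart from the shared 0 h arrays, STS was higher in all 4 lymphoblastoid lines, by 0.19 to 0.38. The mean change was 0.32 ± 0.09 and did not pass (adjusted p = 0.913). Nor did the difference between the classes at 8 h, 0.34 ± 0.15 (adjusted p = 0.873), or STS in any single line. HL60 (0.38 ± 0.17) lay at the upper end of the lymphoblastoid range and Ag09319 (-0.39 ± 0.17) at the other extreme. In the lymphoblastoid mean, 36 h minus 8 h made up 1.66 of the 1.97 log2 units.

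Across the genes tested, no change passed in any mean over lines. The 9 genes leave out STS in contrasts with 36 h, and leave out CYP19A1 at 8 h against 0 h. At 36 h against 8 h they include CYP19A1, whose 8 h arrays entered its choice. At 36 h against 0 h, 0 of 9 genes tested were called in the 4 lymphoblastoid lines, where 1.14% of all probe sets were called, and 0 of 9 in the 9 lines, where 0.473% were. At 36 h against 8 h these counts were 0 of 9 against 0.283% and 0 of 9 against 0.37%. At 8 h against 0 h they were 0 of 9 in the lymphoblastoid lines and 0 of 9 in the 9 lines, against 0.0257% and 0%. The class difference called 0 of 9 genes at 8 h and 0 of 9 at 36 h, against 0% and 0.0154% of all probe sets. Where limma called no probe set at all, 542 had an unadjusted p under 0.05 in the 9-line mean at 8 h and 749 in the class difference at 8 h. With shares this low, a count of 0 among 9 genes does not set them apart from the other probe sets.

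**Figure D3:**
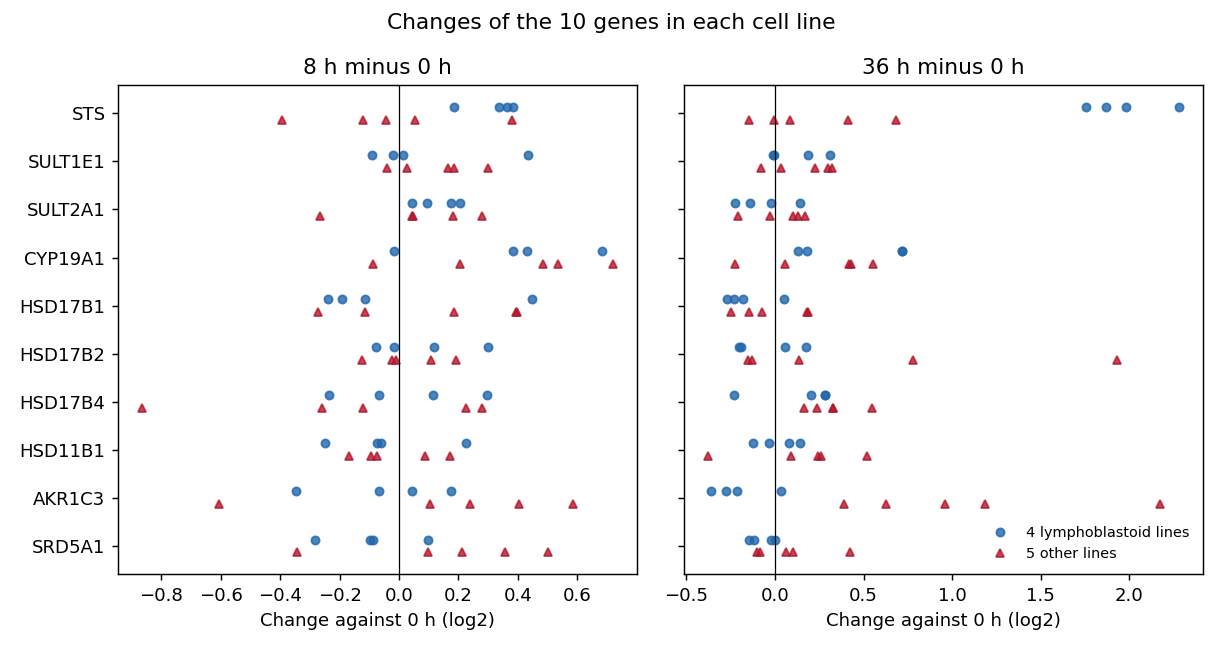
Changes of the 10 genes against 0 h in log2 units, at 8 h (left) and 36 h (right). Each point is 1 cell line, a blue circle for a lymphoblastoid line and a red triangle for another line. STS in the 4 lymphoblastoid lines at 36 h lies at 1.76 to 2.28, and AKR1C3 and HSD17B2 in Ag09319 lie at 2.17 and 1.93.

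Single lines gave 4 calls at 36 h against 0 h, namely AKR1C3 in Ag09319 and Ag09309 and HSD17B2 in Ag09319 and HEP-G2, all higher. The 9 genes tested thus had 2 calls in Ag09319, where 4.5% of all probe sets were called, 1 in Ag09309 (4.92%) and 1 in HEP-G2 (1.85%). None was called in HL60 (0.87% of all probe sets), K562 (0.0412%), GM07019 (0.0515%), GM07348 (0.118%), GM10854 (0.0669%) or GM12878 (0.0515%). At 8 h none of the 9 genes tested was called in any line. The shares of all probe sets called at 8 h were 1.53% in Ag09309, 0.324% in Ag09319, 0.237% in HL60, 0.00515% in GM07348, and 0% in HEP-G2, K562, GM07019, GM10854 and GM12878. The Ag09309 shares at 8 h and 36 h rest on its 0 h arrays with B cell transcripts, whose part was not tested. Of its calls, 277 of 298 at 8 h and 439 of 956 at 36 h were lower.

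The estrogen and hydroxysteroid sulfotransferases add the sulfate that STS removes. SULT1E1, the estrogen sulfotransferase, lay between 1.44 and 2.55 in all 54 arrays, far below the array medians, and its changes ran from -0.09 to 0.43 at 8 h and from -0.08 to 0.32 at 36 h. Untreated HEP-G2 was higher than the other lines by 0.39 ± 0.14 (adjusted p = 0.0208), and by 0.32 ± 0.19 without the arrays that stood apart (adjusted p = 0.2). SULT2A1, the liver and adrenal enzyme that sulfates dehydroepiandrosterone, was high in HEP-G2 and low in the other 8 lines. It stood at 7.43 and 5.62 in HEP-G2 at 0 h, 6.51 and 6.64 at 8 h, and 6.57 and 6.69 at 36 h. In the 8 lymphoblastoid arrays at 0 h it lay between 2.82 and 3.40, and no array outside HEP-G2 reached the array median. The untreated difference of HEP-G2 was 3.53 ± 0.22 (adjusted p = 2.89e-16). Since the other lines lay at levels that cannot be told from background, its size is not exact, and the same holds for the level differences of SULT1E1, CYP19A1 and HSD11B1. The sign of its change in HEP-G2 depended on the 0 h array used. At 36 h against 0 h the change was 0.10 ± 0.29 with all arrays (adjusted p = 0.96), -0.81 ± 0.23 with the 3 arrays that stood apart left out, replicate 2 among them (adjusted p = 0.0459), and 1.01 ± 0.24 without replicate 1 (adjusted p = 0.0126). The lymphoblastoid lines changed by -0.06 ± 0.08 on average at 36 h (adjusted p = 0.756).

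CYP19A1, aromatase, converts androgens to estrogens. Its level lay below the array median in all 54 arrays, with HEP-G2 highest at 4.82 and 4.63 before calcitriol, 1.48 ± 0.15 above the other lines (adjusted p = 1.17e-10). At 8 h, the contrast CYP19A1 was chosen by, the mean over 9 lines was higher by 0.37 ± 0.09, with 7 of 9 lines higher. Outside HEP-G2 the CYP19A1 levels cannot be told from background at any time, so the changes given here are uncertain. Among single lines the 8 h change was largest in Ag09319, which gave 3.39 and 3.29 at 0 h, 3.89 and 4.24 at 8 h, and 3.69 and 3.83 at 36 h. In GM07348 the arrays gave 3.07 and 3.05 at 0 h, 3.85 and 3.63 at 8 h, and 3.54 and 4.01 at 36 h. In both lines the treated arrays lay above both 0 h arrays. HEP-G2, the line with the highest level, had 4.57 and 4.71 at 8 h and 4.65 and 4.35 at 36 h and was not higher at either time. At 36 h, which shares the 0 h arrays with the 8 h contrast, CYP19A1 was higher in 8 of 9 lines, by 0.33 ± 0.09 over 9 lines (adjusted p = 0.0902) and by 0.44 ± 0.11 over the lymphoblastoid lines (adjusted p = 0.0705). Neither passed. Without HEP-G2 the 9-line value was 0.40 ± 0.08 and passed (adjusted p = 0.0289), and with each array centred on its median the lymphoblastoid value was 0.46 ± 0.10 and passed (adjusted p = 0.0386). All these 36 h tests use 0 h arrays that entered the choice of CYP19A1. They are not independent of that choice, and no conclusion is drawn from those that passed.

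The 17β-hydroxysteroid dehydrogenases switch steroids between stronger 17β-hydroxy and weaker 17-keto forms. HSD17B2, which oxidises estradiol to estrone and testosterone to androstenedione, was measured clearly in HEP-G2 and Ag09319. In Ag09319 it stood at 6.43 and 6.47 at 0 h, 6.52 and 6.60 at 8 h, and 8.54 and 8.22 at 36 h. HEP-G2 gave 6.90 and 7.03 at 0 h, 7.27 and 7.04 at 8 h, and 7.67 and 7.81 at 36 h. The 42 arrays of the other 7 lines lay between 4.36 and 5.15 with no separation by time. At 36 h HSD17B2 rose in Ag09319 by 1.93 ± 0.18 (3.81-fold, adjusted p = 2.01e-09) and in HEP-G2 by 0.78 ± 0.18 (1.72-fold, adjusted p = 0.00906). Almost all of the Ag09319 change fell between 8 h and 36 h, 1.82 ± 0.18 (adjusted p = 4.99e-09), where 18% of all probe sets were called. The 36 h change of Ag09319 exceeded the mean of the other 8 lines by 1.87 ± 0.19 (adjusted p = 3.42e-08), in a comparison that called 3.28% of all probe sets. This comparison was added after the values were seen. Its p-value measures the spread between arrays of a group, not the spread between lines. The other fibroblast line, Ag09309, changed by -0.13 ± 0.18 (adjusted p = 0.805) from a level of 4.76 and 4.58. Its sample titles are of another style than those of Ag09319 and HEP-G2. Leaving out single HEP-G2 arrays put the HEP-G2 change at 0.71 to 0.85, and in 3 of these cases, without replicate 1 at 0 h and without either array at 36 h, it did not pass (adjusted p up to 0.171).

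HSD17B1, the reductive enzyme that makes estradiol from estrone, lay between 5.49 and 6.96 in all arrays. Its changes ran from -0.27 to 0.45 at 8 h and from -0.27 to 0.19 at 36 h, and none was called. HSD17B4, a peroxisomal enzyme that also serves fatty acid oxidation, was between 6.62 and 8.08 in 53 of 54 arrays. The remaining array was replicate 2 of Ag09319 at 8 h, at 5.81 against 7.24 in its partner, the array that stood apart from its line. HSD17B4 was higher at 36 h in 8 of 9 lines, by 0.24 ± 0.10 on average, which did not pass (adjusted p = 0.292). Its call in Ag09319 at 36 h against 8 h, 1.20 ± 0.27 (adjusted p = 0.0021), was 0.48 ± 0.19 without the arrays that stood apart (adjusted p = 0.151).

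AKR1C3, also called 17β-hydroxysteroid dehydrogenase type 5, reduces androstenedione to testosterone and acts on prostaglandins. It divided the lines before calcitriol. HEP-G2 stood at 8.87 and 7.48, Ag09319 at 5.65 and 5.55, K562 at 5.68 and 5.34 and Ag09309 at 5.16 and 5.63, against 3.42 to 4.15 in the 10 arrays of HL60 and the lymphoblastoid lines. The untreated level in HEP-G2 exceeded the mean of the other lines by 3.73 ± 0.21 (adjusted p = 3.73e-17), and each lymphoblastoid line lay below the others, by -1.02 to -1.51 (adjusted p of 0.000433 or less). GM12878 did not pass without its replicate 1 (adjusted p = 0.0796).

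With calcitriol AKR1C3 rose in both fibroblast lines at 36 h. Ag09319 gave 5.65 and 5.55 at 0 h, 5.22 and 4.77 at 8 h, and 7.67 and 7.88 at 36 h, a rise of 2.17 ± 0.28 (4.51-fold, adjusted p = 1.81e-06). Ag09309 gave 5.16 and 5.63 at 0 h, 5.99 and 5.97 at 8 h, and 6.62 and 6.53 at 36 h, a rise of 1.18 ± 0.28 (adjusted p = 0.00786). In both lines the 36 h arrays lay above all earlier arrays. The 0 h arrays of Ag09309 are those with B cell transcripts, and lymphoblastoid cells had little AKR1C3 signal. Their part in the Ag09309 change was not tested, and the change between 8 h and 36 h, where the markers were low at both times, was 0.60 ± 0.28 and did not pass (adjusted p = 0.489). The Ag09309 call also ended without replicate 1 at 0 h (0.95, adjusted p = 0.184) and without either 36 h array (adjusted p = 0.0779 and 0.0522). In Ag09319 the change between 8 h and 36 h was 2.78 ± 0.28 (adjusted p = 1.61e-08), and 2.56 ± 0.25 without the array that stood apart at 8 h. The 36 h change of Ag09319 exceeded the mean of the other 8 lines by 1.88 ± 0.30 (adjusted p = 8.43e-05), with the same limits as for HSD17B2. Fitted on the 6 arrays of Ag09319 alone, AKR1C3 and HSD17B2 had the same changes at 36 h and did not pass (adjusted p = 0.0823 for both).

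**Figure D4:**
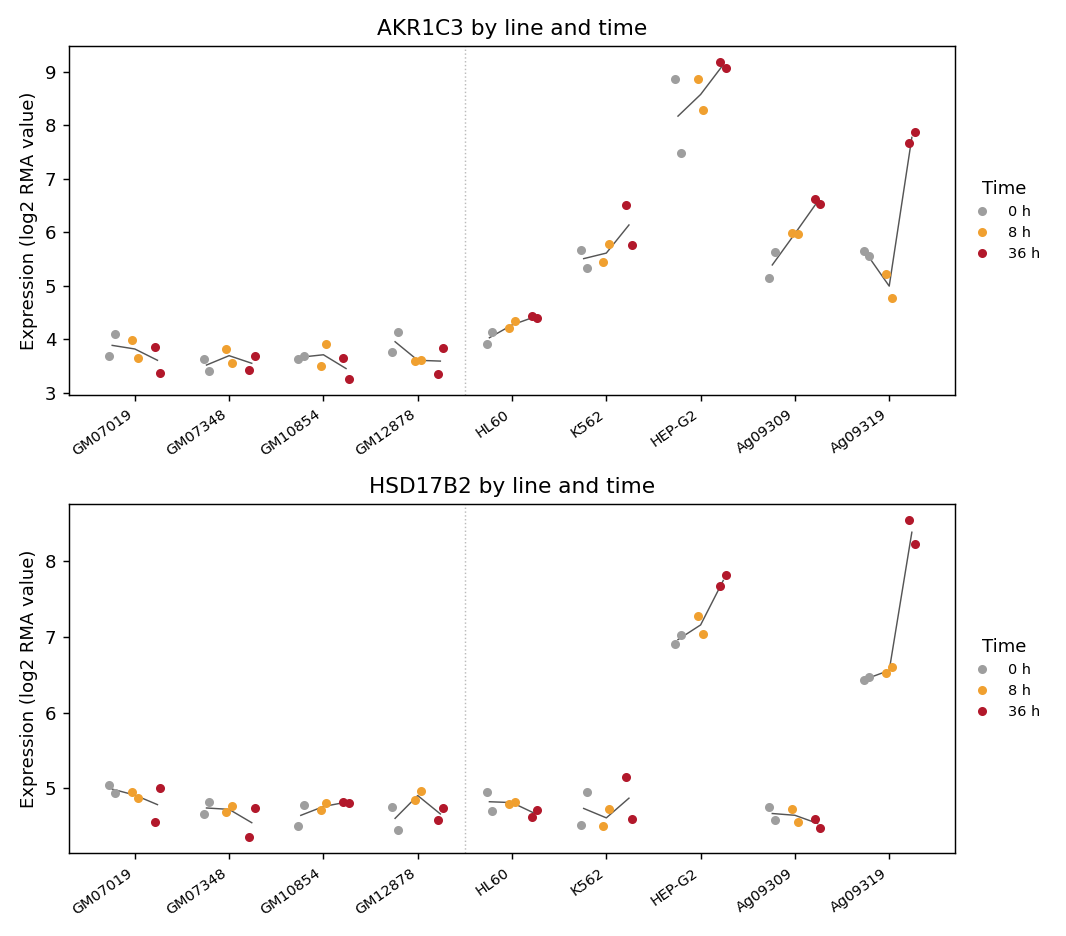
AKR1C3 (top) and HSD17B2 (bottom) as log2 RMA values in the 9 lines at 0, 8 and 36 h. Points are single arrays, grey lines join the means, and the dotted line divides the lymphoblastoid lines (left) from the others. In Ag09319 at 36 h AKR1C3 lies at 7.67 and 7.88 and HSD17B2 at 8.54 and 8.22, above all earlier arrays of that line.

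The direction of the AKR1C3 change at 36 h differed by class on the plot of changes. It was higher in all 5 other lines, by 0.39 to 2.17, and lay between -0.36 and 0.03 in the lymphoblastoid lines. Over all times AKR1C3 lay between 3.26 and 4.15 in the lymphoblastoid arrays and between 3.92 and 4.45 in HL60. These levels are below every array median and cannot be told from background, so the direction by class is uncertain. The class difference, lymphoblastoid minus other lines, was -1.27 ± 0.33 and did not pass (adjusted p = 0.284). Without Ag09319 it was -0.996 ± 0.152 and passed (adjusted p = 0.011). The HEP-G2 change of 0.96 ± 0.28 (adjusted p = 0.0729) and the K562 change of 0.63 ± 0.28 (adjusted p = 0.573) were 0.27 ± 0.25 and 0.26 ± 0.25 without the arrays that stood apart. The HEP-G2 change passed when either Ag09319 array at 8 h was left out (0.96 ± 0.28, adjusted p = 0.0438) and, at 1.65 ± 0.29, without replicate 1 of HEP-G2 at 0 h (adjusted p = 0.000479).

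AKR1C1, AKR1C2 and AKR1C4 are close paralogues of AKR1C3, and probes of 1 may bind transcripts of another. AKR1C1, measured by 2 probe sets, was called in Ag09319 at 36 h on the probe set with the higher mean, by 1.47 ± 0.24 (adjusted p = 5.23e-05). That probe set stood at 6.60 and 6.38 at 0 h, 6.54 and 5.25 at 8 h, and 8.05 and 7.88 at 36 h. The second AKR1C1 probe set was higher by 0.68 ± 0.37 (adjusted p = 0.477), AKR1C2 by 0.74 ± 0.33 (adjusted p = 0.302) and AKR1C4 by 0.67 ± 0.25 (adjusted p = 0.145). In Ag09309 none of the 4 probe sets was called. The AKR1C3 values are therefore uncertain as to which member of the family they measure. These paralogue values were looked up after the AKR1C3 result was seen.

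HSD11B1, which regenerates active cortisol from cortisone, lay between 3.39 and 4.26 in all arrays and never above the array median. HEP-G2 was higher than the other lines at 0 h by 0.46 ± 0.13 (adjusted p = 0.00303), a difference that was 0.32 ± 0.16 without the arrays that stood apart (adjusted p = 0.137). The largest changes at 36 h were 0.52 in K562 and -0.38 in HEP-G2, and neither was called. SRD5A1, the type 1 5α-reductase that makes dihydrotestosterone, lay between 5.60 and 6.75 and with all arrays was called in no line at 0 h. Without the arrays that stood apart, its level in K562 was above the other lines by 0.29 ± 0.11. The SRD5A1 changes ran from -0.34 to 0.50 at 8 h and from -0.15 to 0.42 at 36 h, with the highest value in Ag09309 at both times and no call. With each array centred on its median, the 36 h change in Ag09309, whose 0 h arrays held B cell transcripts, was 0.51 ± 0.15 and passed (adjusted p = 0.0267).

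Other genes of steroid sulfate and steroid metabolism were counted from lists. Of 17 measured sulfatase relatives and maturation factors, 1 rose and 0 fell in the lymphoblastoid lines at 36 h, where 1.14% of all probe sets were called. It was SULF2, which encodes a sulfatase that edits heparan sulfate outside the cell, at 0.60 ± 0.08 (adjusted p = 0.000468). The median of that list was 0.01 against -0.01 for all probe sets. Of 10 genes of steroid glucuronidation and hydroxylation, 1 was called, UGT2B10, which fell by 0.55 ± 0.09 (adjusted p = 0.00367). It belongs to a family of near-identical genes, so its signal may include relatives. None was called among 11 sulfotransferase and sulfate donor genes (median 0.02), 12 steroid sulfate transporters (median 0.00), 12 genes of steroid hormone synthesis (median -0.06), 19 further hydroxysteroid dehydrogenases and reductases (median -0.01) or 6 steroid receptors (median -0.08). In the mean of 9 lines, and at 8 h in either mean, no gene of any list was called.

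STS lies on the X chromosome beside PUDP and PNPLA4. None of the 5 measured neighbours was called in the lymphoblastoid lines at 36 h, with PUDP at 0.21 ± 0.08 (adjusted p = 0.248) and PNPLA4 at 0.06 ± 0.07 (adjusted p = 0.717). Of the 4 neighbours of CYP19A1 none was called in either mean. The genes whose 18 changes against 0 h (9 lines at 8 h and 36 h) ran most like those of STS were MAPKAPK2 (Pearson r = 0.883), IQSEC1 (0.867), CTSZ (0.858), MYRF (0.834) and GLUL (0.816). For CYP19A1 they were MOSPD3 (0.901), CRYBB1 (0.877), ZNF469 (0.857), EPCIP-AS1 (0.841) and MYO5B (0.84). These coefficients are the highest of all genes measured and are descriptions, and the 8 h and 36 h changes of a line share their 0 h arrays. Those for CYP19A1 rest on changes at levels that, outside HEP-G2, cannot be told from background.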

How the data were processed

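Expression was measured on 54 arrays, 2 per line and time. Per the labels' protocols, biotinylated cDNA was made from 100 ng of total RNA. Per the submitters' processing notes, the authors processed the arrays with Affymetrix Expression Console 1.0 and RMA. The deposited values are log2 values. Whether RMA was run on all arrays together was not given in the sources used here. Of 33297 probe sets, 19460 had 1 symbol, and 24 Y-linked and XIST probe sets were left out, which leaves 19436. No filter on low values was applied. For GM10854 the sample titles carry another line's name, and its cell line label was followed.

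Tests were two-sided and used limma 3.58.1 (R 4.3.3) with Benjamini-Hochberg adjustment over all 19436 probe sets in each comparison. Means over lines and class differences were fitted to line means of 2 arrays with line and time as terms, so the line was the replicate. Single lines and 0 h levels were fitted in 1 model of 27 groups to 54 arrays. Scripts were tested on simulated data. The number of arrays limits the precision.

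The members and lists were chosen with earlier results of these data known. All 10 genes were named throughout, list genes where called in a mean over lines, and 5 genes by likeness to STS and to CYP19A1, 1 probe set per gene (that with the highest mean). Alternatives were other normalizations, filters, moderation, adjustment, title styles, a replicate block, and leaving out arrays and lines. The difference between lines, 36 h against 8 h in single lines, levels without Ag09309, list counts in single lines and values of paralogues were added after seeing the data. Promoters are RefSeq's, of GRCh38.p14. The build behind the probe sets was not given in the sources used here. Plots used Python 3.11.15 with matplotlib 3.10.9.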

Additional observations from a re-analysis of the deposited data

Results flagged for a closer look

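Among the changes of each gene over 9 lines, or over the 4 lymphoblastoid lines, 6 of 40 sets had 1 line whose gap to the nearest other line was wide for the whole range. Chance alone gives about 1 in 20 for independent sets of like lines. These sets are not independent, since the 4 lymphoblastoid lines lie within the 9, and HSD17B4 at 36 h in GM07348 counts in both. The lines are also of different cell types, so 6 of 40 cannot be read against that share. SULT2A1 at 8 h was -0.26 in Ag09309, with the next line at 0.04. HSD17B2 at 36 h was 1.93 in Ag09319, with the next line at 0.78. HSD17B4 at 8 h was -0.87 in Ag09319, with the next line at -0.26, and 1 of its 2 arrays there is the one that stood apart (5.81, against 7.24 in the other). HSD17B4 at 36 h was -0.23 in GM07348, the lowest of the 9 lines (next 0.16) and of the 4 lymphoblastoid lines (next 0.20). SRD5A1 at 36 h was 0.42 in Ag09309, with the next line at 0.10. The 0 h arrays of Ag09309, which enter 2 of these changes, held B cell markers, and their part was not tested.

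The 36 h change of Ag09319 differed from the mean of the other 8 lines for AKR1C3, by 1.88 ± 0.30 (limma, adjusted p = 8.43e-05), and for HSD17B2, by 1.87 ± 0.19 (adjusted p = 3.42e-08). These comparisons were added after the values were seen, and their p-values measure the spread between arrays, not between lines.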

How the results depend on the processing

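The description of STS, 1.97 at 36 h in the lymphoblastoid lines, moved by less than the spread between 2 arrays under each alternative that kept its probe set; the filter at the median level removes it (mean 5.45). Counts of genes called in means over lines were 0 and moved to 1 in few cases. At 36 h in the 9-line mean, leaving out 1 line gave 0 to 1, with CYP19A1 gained without HEP-G2. In the lymphoblastoid mean, centring each array on its median gave 1, CYP19A1. The gains of CYP19A1, here and with the replicate block below, use 0 h arrays that entered its choice. In the class difference, leaving out 1 line gave 0 to 1, with AKR1C3 gained without Ag09319. The 4 single-line calls became 0 when only probe sets above the median level were kept, which also removes AKR1C3 and HSD17B2 by their means of 5.05 and 5.29, and 1 when each line was fitted alone. Leaving out 1 array gave 3 to 9, the highest without replicate 1 of Ag09319 at 8 h, which leaves the array that stood apart alone at that time. The 31 calls of 0 h levels became 2 above the median level.

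The replicate numbers were not taken to pair the arrays, since correlations of the deviations in 27 pairs ran from -0.23 to 0.46, with 9 above 0.1, all 3 pairs of K562 (0.22 to 0.46) among them, and 8 below -0.1. With the replicate block, 1 gene was called at 36 h in each of the 9-line mean (CYP19A1, adjusted p = 0.0139), the lymphoblastoid mean (CYP19A1, adjusted p = 0.0257) and the class difference (AKR1C3, adjusted p = 0.0237), and AKR1C3 at 36 h was called in HEP-G2 (adjusted p = 0.0464). Of the changes called with all arrays none turned its direction. Among those not called, SULT2A1 at 36 h in HEP-G2 was 0.10 with all arrays, -0.81 without those that stood apart and 1.01 without replicate 1 at 0 h, and AKR1C3 at 8 h in HEP-G2 was 0.40 and, without those that stood apart, -0.29. With 2 arrays per group no single line can be checked further.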

Other observations

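In the lines where AKR1C3 or HSD17B2 rose at 36 h, the same lists were counted after these results were seen. Of all probe sets, 4.5% were called in Ag09319, 4.92% in Ag09309 and 1.85% in HEP-G2, and a call or a pair of calls in a list is read against these shares. In Ag09319, 2 of 17 sulfatase relatives and maturation factors rose, SULF2 by 0.66 ± 0.16 (limma, adjusted p = 0.00784) and SUMF1, whose product activates sulfatases including STS, by 0.61 ± 0.14 (adjusted p = 0.00499). Of 19 further hydroxysteroid dehydrogenases and reductases 2 rose there, AKR1C1 and HSD17B14, the second by 0.73 ± 0.20 (adjusted p = 0.0202). Of 12 steroid sulfate transporters 1 was called, SLCO4A1, which fell by 0.68 ± 0.18 (adjusted p = 0.0206). In Ag09309, 2 of the 19 dehydrogenases and reductases rose, HSD17B14 by 0.74 ± 0.20 (adjusted p = 0.0202), and H6PD, which supplies HSD11B1 with cofactor, by 0.65 ± 0.18 (adjusted p = 0.031), and 1 of 10 glucuronidation and hydroxylation genes, UGT2B7, by 1.13 ± 0.29 (adjusted p = 0.0152). Of the 17 sulfatase relatives 1 rose there, GALNS, and of the 5 neighbours of STS 1, PNPLA4, by 0.47 ± 0.14 (adjusted p = 0.0425) and 0.49 ± 0.14 (adjusted p = 0.0362). The Ag09309 changes use its 0 h arrays with B cell transcripts, and the part of these was not tested. In HEP-G2, 1 of 10 glucuronidation and hydroxylation genes rose, UGT2B4, by 1.33 ± 0.29 (adjusted p = 0.00563), 1 of 17 sulfatase relatives, ARSL, by 0.72 ± 0.17 (adjusted p = 0.018), and 1 of 12 genes of steroid hormone synthesis, POR, the electron donor of aromatase, by 0.54 ± 0.14 (adjusted p = 0.036). These changes were not tested for a difference between lines.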
